A study of Mus musculus with 12 samples.

Results

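Thrombospondins, tenascins, periostin and osteonectin are secreted proteins that sit in the extracellular matrix without forming its main fibres, and 9 of their genes were followed here through 4 stromal cell populations of mouse mammary tumours. The genes were taken by symbol from the deposited expression table: the thrombospondin genes Thbs1, Thbs2, Thbs3, Thbs4 and Comp, the tenascin genes Tnc and Tnxb, the periostin gene Postn and the osteonectin gene Sparc. All 9 were found among the 55487 genes of the table, and all 9 were among the 15456 genes that reached 1 CPM (reads of a gene per 1000000 reads assigned to genes) in at least 3 libraries and were tested. Tumours came from 3 untreated FVB MMTV-PyMT mice of 10 weeks, whose transgene puts polyoma middle T antigen under the mouse mammary tumour virus promoter, which acts chiefly in mammary epithelial cells. Live cells that lacked CD45, CD31 and EPCAM and carried PDGFRb were sorted into 4 gates. The vcaf gate held Ly6C-, CD146+, PDGFRa- cells, the m2cafpos gate Ly6C-, CD146-, PDGFRa+, NCAM+ cells, the m2cafneg gate Ly6C-, CD146-, PDGFRa+, NCAM- cells, and the icaf gate Ly6C+ cells. Each gate gave 3 libraries numbered 27, 30 and 31 in their titles, numbers read here as the 3 mice (12 libraries, n = 3 per population), and per-library values are given in that order of mice.

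Matricellular proteins of this kind bind collagens, growth factors and integrins, and many are scarce in resting adult tissue and abundant in wounds, tendons and tumour stroma. Thrombospondins 1 and 2 carry repeats that bind the receptor CD36 and restrain blood vessel growth, and thrombospondin 1 can activate latent TGF-beta. Thrombospondins 3 and 4 and the cartilage protein encoded by Comp form a second subgroup that lacks those repeats. Tenascin C appears in healing and tumour stroma, tenascin X (Tnxb) in loose connective tissue where it helps to space collagen fibrils, periostin assists collagen cross-linking, and osteonectin binds collagen and takes part in its secretion.

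Postn and Tnc were highest in m2cafpos, while Thbs3 and Tnxb were highest in icaf, and their promoters are shown because these pairs were ordered so differently over the 4 populations. The sequences are the 250 bases before the start in RefSeq's promoter table (GRCm38.p6), 5′ to 3′ on the gene's strand, with capitals marking matches to the motifs searched. They lie at chr3:54360857-54361106 (+) for Postn, chr4:64047016-64047265 (-) for Tnc, chr3:89214930-89215179 (+) for Thbs3 and chr17:34670285-34670534 (+) for Tnxb.
Postn: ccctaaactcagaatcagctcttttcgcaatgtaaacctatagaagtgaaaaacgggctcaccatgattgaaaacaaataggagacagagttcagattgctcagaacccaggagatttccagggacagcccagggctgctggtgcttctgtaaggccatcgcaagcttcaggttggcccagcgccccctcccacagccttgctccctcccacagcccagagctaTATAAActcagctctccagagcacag
Tnc: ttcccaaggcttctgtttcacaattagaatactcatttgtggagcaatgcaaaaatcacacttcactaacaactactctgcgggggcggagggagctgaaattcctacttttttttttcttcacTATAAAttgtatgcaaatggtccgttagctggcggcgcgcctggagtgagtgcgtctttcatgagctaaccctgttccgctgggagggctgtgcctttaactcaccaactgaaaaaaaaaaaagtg
Thbs3: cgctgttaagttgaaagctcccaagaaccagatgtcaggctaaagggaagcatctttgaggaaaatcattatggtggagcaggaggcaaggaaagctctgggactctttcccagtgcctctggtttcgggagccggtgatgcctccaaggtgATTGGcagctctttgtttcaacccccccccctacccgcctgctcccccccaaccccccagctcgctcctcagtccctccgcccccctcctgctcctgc
Tnxb: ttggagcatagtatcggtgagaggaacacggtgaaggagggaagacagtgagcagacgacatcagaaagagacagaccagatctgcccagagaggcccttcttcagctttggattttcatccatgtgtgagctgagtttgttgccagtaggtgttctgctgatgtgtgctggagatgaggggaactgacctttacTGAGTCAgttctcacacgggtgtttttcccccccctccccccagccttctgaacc
The capitals are the TATA box letters TATAAA in Postn, which begin 26 bases before the start, and in Tnc, where they begin 126 bases before it. In Thbs3 they are the CCAAT box CCAAT read on the opposite strand, 98 bases before the start, and in Tnxb the AP-1 motif TGANTCA, 55 bases before it. For Tnc the promoter table holds a second start 79 bases downstream, from which the same match begins 205 bases upstream. The window of that start also holds tatataag closer to the start, which a search for TATAAA does not match. The place of the Tnc match thus depends on the start taken, and its use as a TATA box was not tested. Windows of 250 bases before and 50 after the start were available for 7 of the 9 genes, all but Thbs1 and Comp, and were searched on either strand for 5 motifs. TATAAA was in 3 of the 7 windows (Postn, Tnc and, on the opposite strand, Thbs2), against 13.6% of all 32851 windows in the table. CCAAT was in 2 (Thbs2 and Thbs3), against 37.4% of windows. TGANTCA was in 1 (Tnxb), against 7.81% of windows. The TEAD motif CATTCC was in 1 (Thbs4, as a pair of overlapping copies), against 14.7%, and the CArG box was in 0, against 1.63%. These matches describe the letters of the windows only.

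Between 43898839 and 55363203 reads per library were assigned to genes, so that 1 read stood for 0.0181 to 0.0228 CPM. The genes of the sorting antigens followed the gates: Mcam, which encodes CD146, averaged 269 ± 25.1 CPM in vcaf and at most 9.82 CPM in any other population, and Ncam1 585 ± 20.3 CPM in m2cafpos and 31.1 ± 5.63 CPM in m2cafneg. Ly6c1 averaged 1106 ± 140 CPM in icaf and at most 66.3 CPM in the others, and Pdgfra 6.73 ± 2.07 CPM in vcaf and 403 to 537 CPM in the others. Defining fibroblast genes were low in vcaf, which carried pericyte genes. All 6 fibroblast markers were lower in vcaf than in each other population (summed level 9959 to 12429 CPM in vcaf, against 145842 to 154547 in m2cafpos, 73506 to 92819 in m2cafneg and 69848 to 74416 in icaf). Pdgfra is 1 of these 6, and its low level in vcaf was selected for by the PDGFRa- gate. All 7 pericyte markers were higher in vcaf (34076 to 55525 CPM in vcaf, and at most 474 CPM in any other library), with Rgs5 at 41419 ± 10177 CPM, as were all 6 smooth muscle markers (2727 to 2776 CPM, and at most 307 in any other library). Transcripts of cells that were sorted against were uneven. Over 10 epithelial genes, Csn3 and Krt18 foremost, the sum was 6999 to 13598 CPM in vcaf, 525 to 2498 in m2cafpos, 4720 to 10303 in m2cafneg and 932 to 2478 in icaf. The 10 macrophage genes, led by Cd14 and Lyz2, summed to 558 to 1343 CPM in vcaf, 151 to 235 in m2cafpos, 601 to 974 in m2cafneg and 93.6 to 213 in icaf. Endothelial sums were 326 to 459 CPM in vcaf, 27.7 to 62.2 in m2cafpos, 84.9 to 305 in m2cafneg and 142 to 253 in icaf, the icaf level being mostly Tek (165 ± 42.8 CPM). Sums of the 7 dissociation-stress genes, Fos and Jun among them, were 10820 to 13090 CPM in vcaf, 5087 to 5740 in m2cafpos, 9914 to 14583 in m2cafneg and 6134 to 6688 in icaf. In such bulk libraries, fewer cells that express a gene and less of its RNA per cell cannot be told apart.

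**Figure D1:**
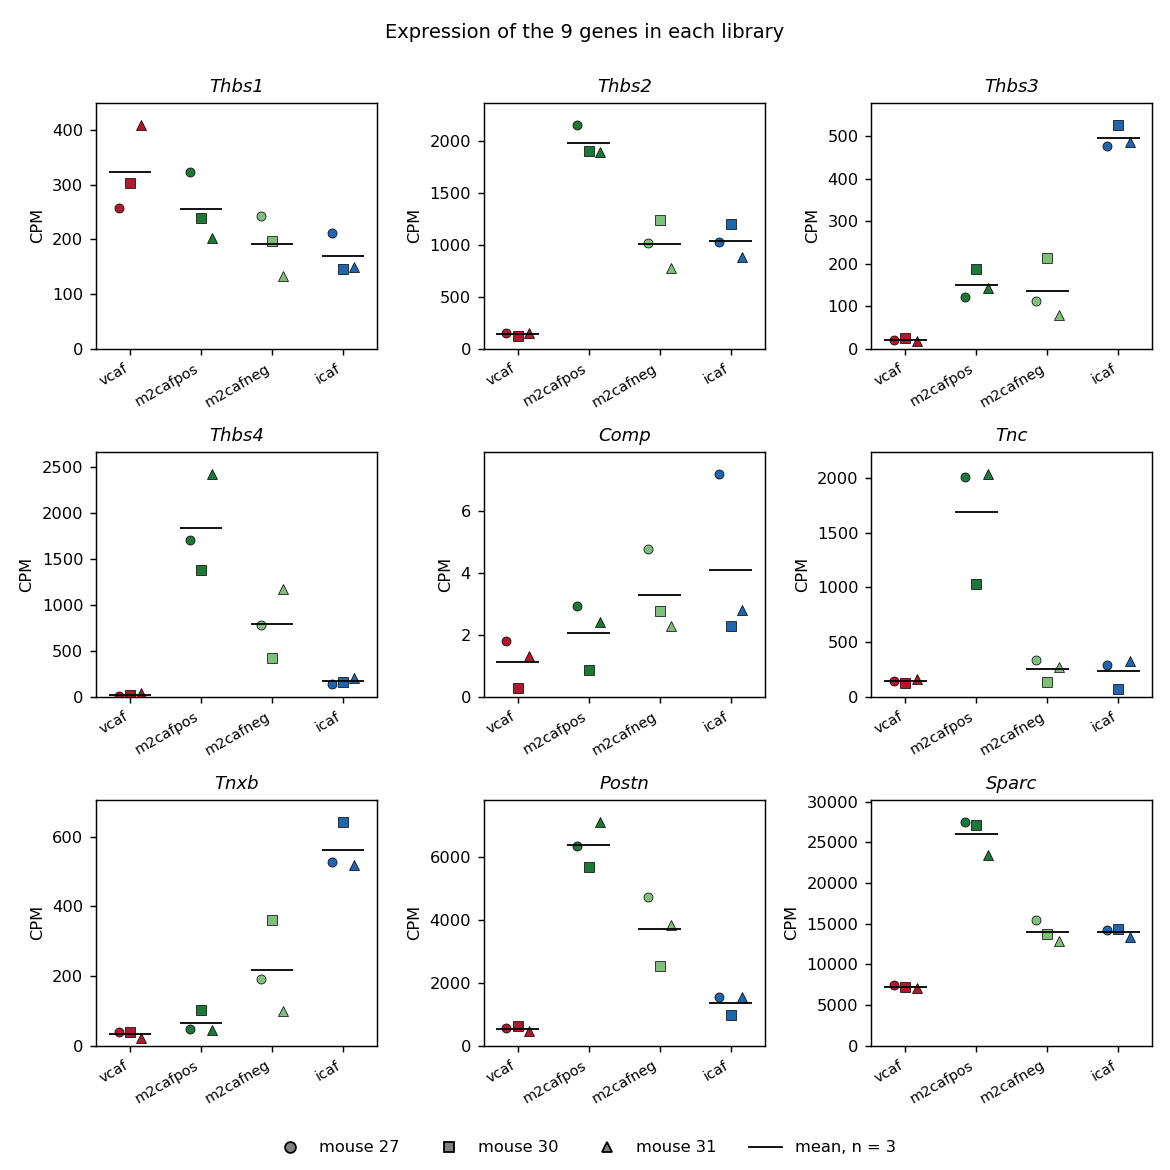
CPM (vertical axes, linear from 0) of each of the 9 genes in the 12 libraries, by population on the horizontal axes; symbols stand for the mice and lines for the mean of 3 libraries. Thbs2, Thbs4, Tnc, Postn and Sparc stood highest in m2cafpos, Thbs3, Comp and Tnxb had their highest mean in icaf, and Thbs1 had its highest mean in vcaf.

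Together the 9 genes took 0.830% to 0.861% of all reads in vcaf, 3.72% to 4.02% in m2cafpos, 1.89% to 2.29% in m2cafneg and 1.75% to 1.84% in icaf, and these ranges separate every population from every other. Sparc made up most of each sum. Without it the shares were 0.116% to 0.126% in vcaf, 1.05% to 1.39% in m2cafpos, 0.511% to 0.740% in m2cafneg and 0.371% to 0.424% in icaf. Divided by exon length (CPM per kb), so that genes can be set beside each other, Sparc ranked 10th, 3rd, 5th and 7th among 55141 genes in vcaf, m2cafpos, m2cafneg and icaf. This length merges the exons of all annotated transcripts of a gene and can exceed that of any single transcript. It was 8.70 kb for Postn, with 9 transcripts, so orders between genes per kb depend on the annotation. In m2cafpos the order per kb below Sparc (6864 ± 597) was Postn (733 ± 81.3), Thbs4 (560.2 ± 162), Thbs2 (283 ± 20.9), Tnc (218 ± 73.5), Thbs1 (42.0 ± 10.2), Thbs3 (31.2 ± 6.89), Tnxb (5.30 ± 2.71) and Comp (0.698 ± 0.360), in CPM per kb (SD, n = 3). In icaf the same order ran Sparc (3685 ± 142), Postn (156 ± 39.4), Thbs2 (148 ± 22.7), Thbs3 (103 ± 5.32), Thbs4 (52.3 ± 10.4), Tnxb (46.0 ± 5.64), Tnc (30.1 ± 18.0), Thbs1 (27.8 ± 6.02) and Comp (1.38 ± 0.910), also in CPM per kb. The genes thus differed in rank as well as in level: Thbs3 and Tnxb, near the foot of the order in m2cafpos, stood above Tnc in icaf.

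Each pair of populations was compared over all tested genes with limma on log2(CPM + 1), and a gene was called when its Benjamini-Hochberg adjusted p was under 0.05. In vcaf against m2cafpos, 6 of the 9 genes were lower and 0 higher, where 67.9% of all tested genes were called (55.5% higher, 12.4% lower). In vcaf against m2cafneg, 6 were lower and 1 (Thbs1) higher, where 37.9% of all tested genes were called (26.6% higher, 11.3% lower). In vcaf against icaf, 7 were lower and 1 (Thbs1) higher, where 59.9% were called (46.1% higher, 13.9% lower). The median log2 fold change of the 9 genes was -2.73, -2.48 and -1.31 in these 3 comparisons, where the median of all tested genes was 0.51, 0.26 and 0.36.

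Among the 3 populations gated as positive for PDGFRa or Ly6C the genes went in either direction. In m2cafpos against m2cafneg, 5 were higher and 1 (Tnxb) lower, where 26.1% of all tested genes were called (3.51% higher, 22.6% lower), with a median of 0.83 for the 9 genes and -0.23 for all. In m2cafpos against icaf, 5 were higher and 2 (Thbs3 and Tnxb) lower, where 23.9% were called (8.86% higher, 15.0% lower), with medians of 0.89 and -0.11. In m2cafneg against icaf, 2 (Thbs4 and Postn) were higher and 2 (Thbs3 and Tnxb) lower, where 29.7% were called (20.9% higher, 8.77% lower), with medians of 0.003 and 0.12. The 3 comparisons that involve a population share its libraries. Of the 54 pairs of gene and comparison, 38 were called, each with the same direction in 3 of 3 mice and 37 with no overlap between the libraries of the 2 populations. The test itself favours pairs of this kind, and the same counts were not taken over all tested genes, so they add nothing to the calls. Median-of-ratios scaling between libraries moved the median of all genes by -0.48, -0.24, -0.37, 0.24, 0.11 and -0.12 (log2) in the 6 comparisons as ordered above, and it turned the direction of 2 uncalled differences, Thbs1 in vcaf against m2cafpos and Sparc in m2cafneg against icaf.

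**Figure D2:**
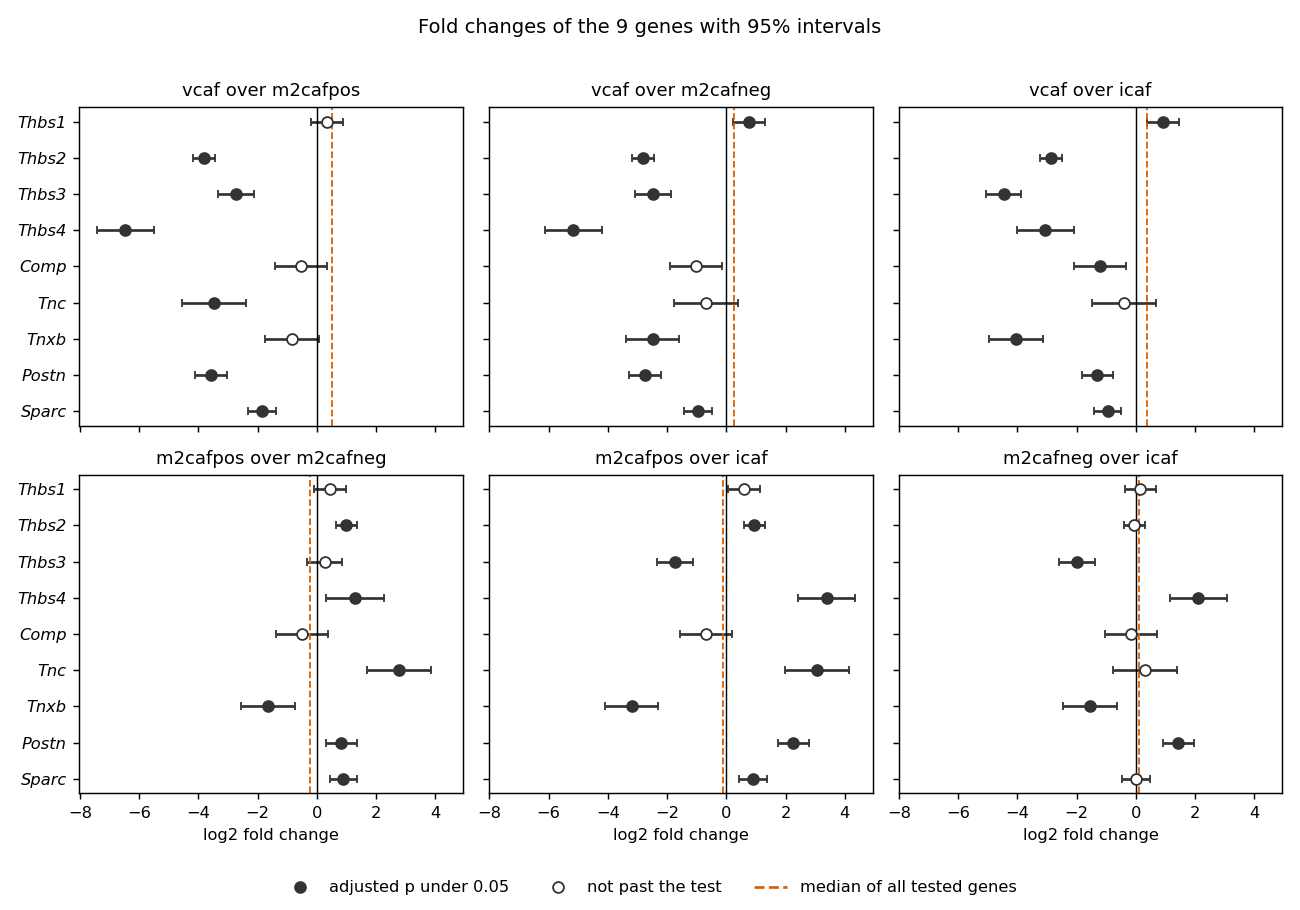
Log2 fold change (horizontal axes, on the log2(CPM + 1) scale) of each gene in the 6 comparisons, first-named population over the second, with 95% intervals from limma; filled points passed an adjusted p of 0.05 and the dashed line is the median of all tested genes. In vcaf over m2cafpos the points reach from -6.46 for Thbs4 to 0.34 for Thbs1, and in m2cafneg over icaf those of Thbs2 and Sparc lie beside 0.

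Thbs1 (ENSMUSG00000040152, GRCm38 chromosome 2, 118111876 to 118127133, plus strand, 22 exons), which encodes the thrombospondin best known for restraining blood vessels, was the member with its highest mean in the CD146+ vcaf gate and the smallest range between population means. It was measured at 257, 303 and 409 CPM in vcaf, at 323, 238 and 203 CPM in m2cafpos, at 243, 197 and 132 CPM in m2cafneg and at 211, 145 and 150 CPM in icaf. The vcaf libraries lay above all m2cafneg and icaf libraries but overlapped those of m2cafpos, and mouse 27 had its highest level in m2cafpos. The means were 323 ± 77.8, 255 ± 61.9, 191 ± 55.5 and 169 ± 36.6 CPM (SD, n = 3), a range of 1.91-fold, and no neighbours in this order differed by the test. Thbs1 was higher in vcaf than in m2cafneg by 0.77 (log2, SE 0.25, limma adjusted p = 0.0278) and than in icaf by 0.92 (SE 0.25, limma adjusted p = 0.00642). Neither call held with median-of-ratios scaling (limma adjusted p = 0.204 and 0.128) or in edgeR on reads (0.254 and 0.124), and the first was also lost without vcaf of mouse 30 (0.0541), vcaf of mouse 31 (0.104) or m2cafneg of mouse 31 (0.0951). Relative to the median of all genes the differences were 0.51 and 0.56.

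Thbs2 (ENSMUSG00000023885, chromosome 17, 14665500 to 14694235, minus strand, 21 exons), whose protein shares the CD36-binding repeats of thrombospondin 1, had its lowest level in vcaf, where Thbs1 had its highest mean. Its level was 147, 126 and 151 CPM in vcaf, 2152, 1904 and 1893 CPM in m2cafpos, 1019, 1238 and 776 CPM in m2cafneg and 1026, 1201 and 884 CPM in icaf. Every vcaf library was below every other and every m2cafpos library above every other, while m2cafneg and icaf overlapped. Thbs2 was lower in vcaf by 3.80 than in m2cafpos, by 2.81 than in m2cafneg and by 2.86 than in icaf (log2, SE 0.17 each, limma adjusted p at most 8.16e-08). It was higher in m2cafpos by 0.99 than in m2cafneg (SE 0.17, limma adjusted p = 0.00272) and by 0.94 than in icaf (SE 0.17, limma adjusted p = 0.00130). For m2cafneg against icaf the difference was -0.05 with a 95% interval of -0.41 to 0.31 (log2, limma adjusted p = 0.853). The 2 genes of this subgroup exchanged rank between populations. Within a library the ratio of Thbs2 to Thbs1 was 0.369 to 0.574 in vcaf, 6.65 to 9.33 in m2cafpos, 4.20 to 6.28 in m2cafneg and 4.86 to 8.26 in icaf.

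In the second thrombospondin subgroup, Thbs3 and Thbs4 peaked in different populations. Thbs3 (ENSMUSG00000028047, chromosome 3, 89215180 to 89226837, plus strand, 20 exons), whose protein is studied mainly in skeletal growth in the mouse, stood at 20.5, 25.0 and 19.2 CPM in vcaf, 123, 187 and 142 CPM in m2cafpos, 113, 213 and 78.4 CPM in m2cafneg and 477, 525 and 486 CPM in icaf. The icaf libraries were highest and the vcaf libraries lowest with no overlap, while the m2cafpos values lay inside the m2cafneg range. Thbs3 was lower in vcaf than in icaf by 4.47 (log2, SE 0.28, limma adjusted p = 7.04e-08), in m2cafpos than in icaf by 1.73 (SE 0.28, limma adjusted p = 0.000622) and in m2cafneg than in icaf by 1.99 (SE 0.28, limma adjusted p = 0.000284). It was also lower in vcaf than in m2cafpos, by 2.73, and than in m2cafneg, by 2.48 (SE 0.28 each, limma adjusted p = 5.67e-06 and 2.15e-05). Between m2cafpos and m2cafneg the difference was 0.26 (95% interval -0.34 to 0.86, limma adjusted p = 0.519), it was 0.65 without m2cafneg of mouse 30 (limma adjusted p = 0.0345) and -0.067 without m2cafneg of mouse 31 (0.876). Mtx1 lies over Thbs3 on the opposite strand and shares 318 bases, or 6.59%, of its exons. The level of Mtx1 was 44.7, 26.6, 34.3 and 30.2 CPM in vcaf, m2cafpos, m2cafneg and icaf, and its part in the Thbs3 counts was not tested.

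Thbs4 (ENSMUSG00000021702, chromosome 13, 92751590 to 92794818, minus strand, 22 exons), which encodes a thrombospondin of tendon, muscle and injured tissue, had the widest range of the 9 genes, 81.3-fold between the highest and lowest population means. Its level was 9.25, 19.4 and 39.4 CPM in vcaf, 1711, 1386 and 2430 CPM in m2cafpos, 785, 429 and 1175 CPM in m2cafneg and 142, 165 and 209 CPM in icaf. The 4 populations did not overlap, and their order, m2cafpos above m2cafneg above icaf above vcaf, was the same in each of the 3 mice. Thbs4 was lower in vcaf by 6.46 than in m2cafpos, by 5.17 than in m2cafneg and by 3.07 than in icaf (log2, SE 0.44 each, limma adjusted p = 1.75e-07, 1.83e-06 and 9.74e-05). Against icaf it was higher by 3.39 in m2cafpos (SE 0.44, limma adjusted p = 0.000136) and by 2.11 in m2cafneg (SE 0.44, limma adjusted p = 0.00380). For m2cafpos against m2cafneg the difference was 1.29 (SE 0.44, limma adjusted p = 0.0496). This call was kept without vcaf of mouse 27 or 31 or m2cafneg of mouse 31 and lost without any other library (limma adjusted p of 0.0233 to 0.165 over the 12 fits), and it was lost in edgeR on reads (0.0535). The ratio of Thbs4 to Thbs3 within a library separated icaf (0.298 to 0.430) from m2cafpos (7.40 to 17.1) and m2cafneg (2.01 to 15.0), with vcaf at 0.451 to 2.06.

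**Figure D3:**
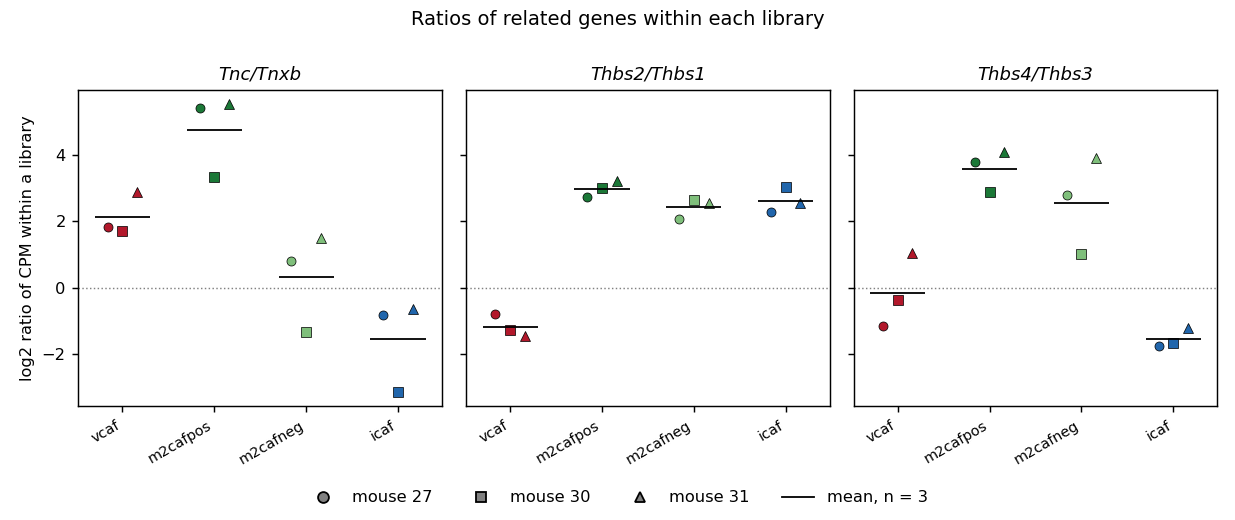
Log2 ratio of CPM within each library (vertical axis) for Tnc over Tnxb, Thbs2 over Thbs1 and Thbs4 over Thbs3, by population; symbols stand for the mice and lines for the mean of 3 libraries. Thbs2 is above Thbs1 in every library but those of vcaf, and Tnc is below Tnxb in the 3 icaf libraries and in m2cafneg of mouse 30.

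Comp (ENSMUSG00000031849, chromosome 8, 70373558 to 70382066, plus strand, 20 exons), the cartilage and tendon thrombospondin, was the scarcest of the 9 genes in all 4 populations. It stood at 1.82, 0.296 and 1.31 CPM in vcaf, 2.93, 0.871 and 2.41 CPM in m2cafpos, 4.77, 2.79 and 2.30 CPM in m2cafneg and 7.20, 2.28 and 2.81 CPM in icaf, which is 16 to 379 reads. Only vcaf and icaf, and vcaf and m2cafneg, had no overlap. Comp was lower in vcaf than in icaf by 1.20 on the log2(CPM + 1) scale, which understates differences at this level (SE 0.40, limma adjusted p = 0.0220), a call lost without vcaf of mouse 30 (0.0984) or icaf of mouse 27 (0.104). Without icaf of mouse 27, Comp was called lower in vcaf than in m2cafneg (0.0378). With the mouse as a block, Comp was also called lower in vcaf than in m2cafneg (-1.03, limma adjusted p = 0.00402 with the block and 0.0619 without it) and lower in m2cafpos than in icaf (-0.68, limma adjusted p = 0.0460 with the block and 0.266 without it). The sum of 6 cartilage and tendon markers, 107 to 122 CPM in vcaf, 15.9 to 33.5 in m2cafpos, 80.0 to 100.3 in m2cafneg and 20.5 to 28.5 in icaf, was mostly Sox9. Mkx, Tnmd, Col2a1, Scx and Acan averaged at most 4.36, 2.99, 2.53, 0.794 and 0.381 CPM in any population, and Scx and Acan were not tested. These markers were not ordered like Comp. All 4 tested were higher in m2cafneg than in icaf (all tested genes 20.9% higher, 8.77% lower), where Comp was at -0.17 (limma adjusted p = 0.792). In vcaf 3 of the 4 were higher than in icaf and 0 lower (all 46.1% and 13.9%), where Comp was lower.

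Tnc (ENSMUSG00000028364, chromosome 4, 63959785 to 64047015, minus strand, 27 exons), which encodes the tenascin of wounds and tumour stroma and whose promoter letters are given above, stood apart in the NCAM+ gate. It was measured at 143, 129 and 167 CPM in vcaf, 2009, 1033 and 2037 CPM in m2cafpos, 338, 142 and 279 CPM in m2cafneg and 296, 73.4 and 332 CPM in icaf. The lowest m2cafpos library (1033 CPM) was above the highest of all others (338 CPM), and the other 3 populations overlapped. Tnc was higher in m2cafpos by 2.76 than in m2cafneg (log2, 6.78-fold, SE 0.50, limma adjusted p = 0.00343) and by 3.06 than in icaf (8.32-fold, SE 0.50, limma adjusted p = 0.000693), and in vcaf it was lower than in m2cafpos by 3.46 (SE 0.50, limma adjusted p = 8.32e-05). The differences between the remaining 3 populations were -0.70 for vcaf against m2cafneg (95% interval -1.78 to 0.38), -0.41 for vcaf against icaf (-1.49 to 0.67) and 0.29 for m2cafneg against icaf (-0.78 to 1.37), with limma adjusted p of 0.275, 0.498 and 0.696. Without icaf of mouse 30, the lowest of all 12 libraries, the difference of vcaf against icaf was -1.10 (limma adjusted p = 0.0205).

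Tnxb (ENSMUSG00000033327, chromosome 17, 34670535 to 34719815, plus strand, 41 exons), which encodes the tenascin of loose connective tissue, was highest in icaf, while vcaf had the lowest mean for both tenascins. Its level was 39.9, 39.8 and 22.6 CPM in vcaf, 47.1, 103 and 44.2 CPM in m2cafpos, 192, 361 and 99.1 CPM in m2cafneg and 527, 641 and 517 CPM in icaf. The icaf libraries were highest without overlap, and in each mouse the order was icaf, m2cafneg, m2cafpos, vcaf. Mouse 30 of m2cafpos (103 CPM) lay just above mouse 31 of m2cafneg (99.1 CPM), the only overlap among the 38 called pairs. Tnxb was lower than in icaf by 4.04 in vcaf, by 3.20 in m2cafpos and by 1.55 in m2cafneg (log2, SE 0.42 each, limma adjusted p = 5.87e-06, 0.000131 and 0.0143). It was lower than in m2cafneg by 2.49 in vcaf and by 1.65 in m2cafpos (SE 0.42 each, limma adjusted p = 0.000580 and 0.0143). The difference between vcaf and m2cafpos was -0.84 (limma adjusted p = 0.0901), and it was called with the mouse as a block (limma adjusted p = 0.00813) and with median-of-ratios scaling (-1.38, limma adjusted p = 0.0202), and also without m2cafneg of mouse 30 (0.0412) or 31 (0.0406). Calls at the m2cafneg end rested on few libraries: m2cafpos against m2cafneg was lost without m2cafpos of mouse 27 (0.0586) or 31 (0.0514), and m2cafneg against icaf without m2cafneg of mouse 31 (0.0590) or icaf of mouse 30 (0.0520), all limma adjusted p.

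The ratio of the 2 tenascins spanned a wide range. Tnc exceeded Tnxb by 10.0- to 46.0-fold within each m2cafpos library and by 3.25- to 7.40-fold within each vcaf library. In m2cafneg the ratio was 0.393 to 2.81, with Tnc below Tnxb in mouse 30 only, and in icaf it was 0.114 to 0.641. Among the 55141 genes ranked per kb, Tnc was 204th and Tnxb 5501st in m2cafpos, against 1680th and 1139th in icaf.

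Postn (ENSMUSG00000027750, chromosome 3, 54361109 to 54391037, plus strand, 22 exons), the periostin gene, whose product is induced by TGF-beta in many fibroblasts, formed a ladder over the populations. It stood at 544, 617 and 455 CPM in vcaf, 6348, 5682 and 7096 CPM in m2cafpos, 4706, 2526 and 3843 CPM in m2cafneg and 1557, 959 and 1549 CPM in icaf. No 2 populations overlapped, and the order m2cafpos, m2cafneg, icaf, vcaf held in each mouse. Postn was lower in vcaf by 3.57 than in m2cafpos, by 2.74 than in m2cafneg and by 1.31 than in icaf (log2, SE 0.24 each, limma adjusted p = 1.74e-07, 2.71e-06 and 0.000655). Above icaf, it was higher by 2.26 in m2cafpos and by 1.43 in m2cafneg (SE 0.24 each, limma adjusted p = 3.12e-05 and 0.00103). The difference of m2cafpos against m2cafneg was smaller, 0.83 (SE 0.24, limma adjusted p = 0.0276), and was lost without m2cafpos of mouse 27 (0.0741) or 31 (0.0823) or m2cafneg of mouse 30 (0.0893) or 31 (0.0547) and with only these 2 populations in the fit (0.0672), all limma adjusted p.

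Sparc (ENSMUSG00000018593, chromosome 11, 55394500 to 55423183, minus strand, 12 exons), which encodes a calcium- and collagen-binding glycoprotein, was the most abundant of the 9 genes in every library, with a coefficient of variation between mice of 2.95% to 9.64% over the populations. Its level was 7444, 7141 and 7035 CPM in vcaf, 27475, 27124 and 23398 CPM in m2cafpos, 15488, 13768 and 12820 CPM in m2cafneg and 14179, 14354 and 13346 CPM in icaf. The vcaf libraries were lowest and the m2cafpos libraries highest with no overlap, and the m2cafneg and icaf libraries interleaved. Sparc was lower in vcaf by 1.85 than in m2cafpos, by 0.96 than in m2cafneg and by 0.95 than in icaf (log2, SE 0.21 each, limma adjusted p = 1.55e-05, 0.00416 and 0.00210). It was higher in m2cafpos by 0.89 than in m2cafneg and by 0.89 than in icaf (SE 0.21 each, limma adjusted p = 0.0112 and 0.00845), calls that a fit of only the 2 populations did not keep (0.110 and 0.0994). For m2cafneg against icaf the difference was 0.003 with a 95% interval of -0.46 to 0.46 (limma adjusted p = 0.994).

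The summed epithelial, macrophage and stress markers described above were higher in every vcaf and m2cafneg library than in any of m2cafpos or icaf. In vcaf, all 10 epithelial genes were higher than in m2cafpos and than in icaf, and 0 of 10 were called against m2cafneg. The same counts were 9, 10 and 0 of 10 for the macrophage genes. All 10 epithelial genes, all 10 macrophage genes and 6 of 7 stress genes were higher in m2cafneg than in icaf, and 10, 9 and 7 of them were lower in m2cafpos than in m2cafneg. When the summed epithelial level entered the fit as a covariate, 3 of the 9 genes were called in m2cafpos against m2cafneg (Thbs4, Tnc and Tnxb), against 6 without it, and 0 in m2cafneg against icaf, against 4 without it. In vcaf against icaf 5 were called, the calls of Thbs1, Comp and Sparc being lost (limma adjusted p = 0.0913, 0.164 and 0.173). Calls fell over all 15456 tested genes too. They went from 4041 to 289 in m2cafpos against m2cafneg, from 4594 to 620 in m2cafneg against icaf and from 9265 to 3356 in vcaf against icaf. In the same fit Tnxb in m2cafneg against icaf was -0.08 (limma adjusted p = 0.949) and Thbs4 was 0.66 (limma adjusted p = 0.554). Neither the epithelial sums of m2cafneg (4720 to 10303 CPM) nor those of vcaf (6999 to 13598 CPM) overlapped those of m2cafpos or icaf. The covariate and the population therefore cannot be told apart when vcaf or m2cafneg is compared with m2cafpos or icaf, which covers all the lost calls above. Between m2cafpos and icaf, whose epithelial sums overlapped and where 0 of 10 epithelial genes were called, all 7 calls held with the covariate. The 7 genes of platelets, a rich source of thrombospondin 1 protein, summed to 6.57 to 12.9 CPM in vcaf, 12.3 to 20.5 in m2cafpos, 18.8 to 46.0 in m2cafneg and 35.3 to 42.0 in icaf. Pf4 averaged 5.21 CPM in vcaf, 0.360 CPM in m2cafpos, 1.84 CPM in m2cafneg and 0.352 CPM in icaf, whereas the sum over the 7 genes had its lowest mean in vcaf. Itga2b made up most of the sum outside vcaf, and Gp1bb, Gp1ba, Gp9, Ppbp and Treml1 averaged at most 0.371 CPM in any population. The part of platelet RNA in the level of Thbs1 was not tested. Schwann cell genes, mostly Sox10 and Ngfr, summed to 127 to 155 CPM in vcaf, 25.7 to 80.8 in m2cafpos, 83.9 to 114 in m2cafneg and 21.0 to 156 in icaf.

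Several genes differed between mice in the same way in all 4 populations. Tnc was lowest in mouse 30 in 4 of 4 populations, by 0.73 (log2) below the population mean on average and by 1.39 in icaf. Tnxb was lowest in mouse 31 in 4 of 4 and highest in mouse 30 in 3 of 4, and Comp was highest in mouse 27 in 4 of 4. A limma F test of the mouse over the 12 libraries, chosen after the values had been seen, gave adjusted p = 0.0268 for Tnc, 0.0323 for Comp and 0.0370 for Tnxb, where 4.71% of all tested genes were called. Thbs4 was highest in mouse 31 and Thbs3 in mouse 30 in 4 of 4 populations without passing that test (limma adjusted p = 0.0704 and 0.110). For Sparc the deviations stayed within 0.15 of the population mean (limma adjusted p = 0.745). The labels say nothing of how the 3 mice or their tumours differed.

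**Figure D4:**
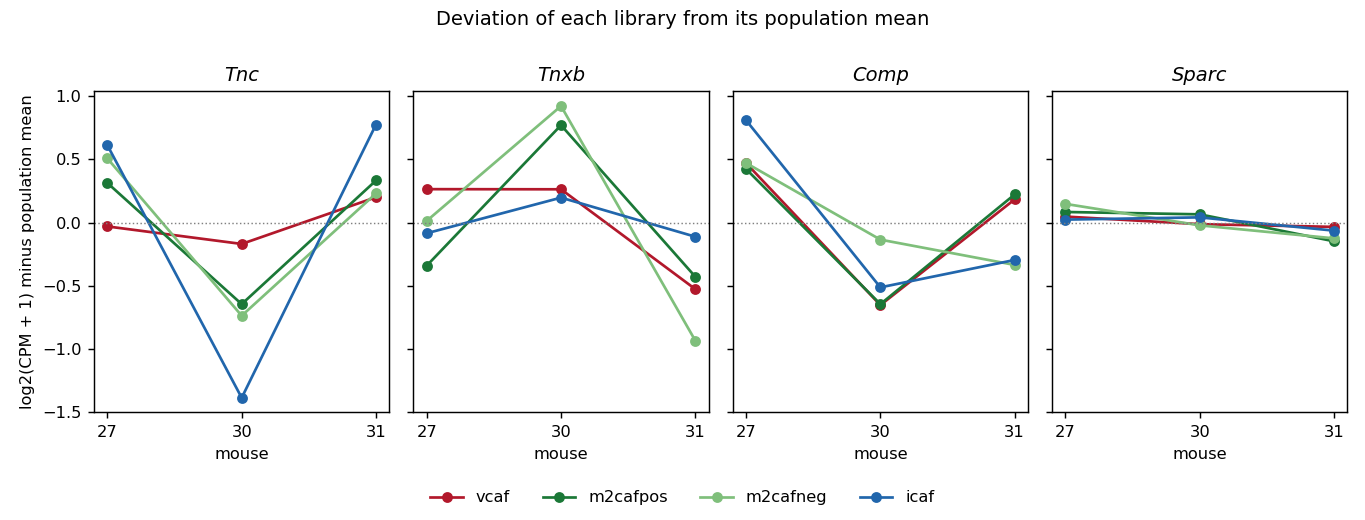
Deviation of each library from its population's mean log2(CPM + 1) (vertical axis) by mouse (horizontal axis) for Tnc, Tnxb, Comp and Sparc, with 1 line per population. Mouse 30 is lowest for Tnc and mouse 31 lowest for Tnxb in all 4 populations, whereas the Sparc lines stay within 0.15 of 0.

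Of the close relatives outside the set, Sparcl1 and Tgfbi were ordered otherwise than Sparc and Postn, and Tnn was highest in m2cafpos like Tnc. Of 10 family genes, 9 were tested. In vcaf 2 were higher and 6 lower than in m2cafpos (median log2 fold change -1.58), where 55.5% of all tested genes were higher and 12.4% lower. Against m2cafneg 1 was higher and 6 lower in vcaf (-1.62, all tested genes 26.6% and 11.3%), and against icaf 2 and 6 (-2.06, all 46.1% and 13.9%). In m2cafpos 2 were higher and 4 lower than in m2cafneg (-0.26, all 3.51% and 22.6%) and 3 and 3 than in icaf (0.31, all 8.86% and 15.0%). In m2cafneg 4 were higher and 2 lower than in icaf (1.11, all 20.9% and 8.77%). Sparcl1, the nearest relative of Sparc, had its highest level where Sparc was lowest, at 3578 ± 719 CPM in vcaf and at 349 ± 84.0 in m2cafpos, 1014 ± 242 in m2cafneg and 129 ± 47.4 in icaf, and was higher in vcaf than in icaf by 4.84 (log2, SE 0.29, limma adjusted p = 4.45e-08). Tgfbi, which encodes the other protein of the periostin type, stood at 13.2, 8.06 and 23.2 CPM in vcaf, 46.9, 54.9 and 31.3 CPM in m2cafpos, 141, 175 and 71.3 CPM in m2cafneg and 76.2, 68.5 and 93.8 CPM in icaf. It was lower in m2cafpos than in m2cafneg by 1.46 (limma adjusted p = 0.0138), where Postn was higher by 0.83. Tnn, which encodes tenascin N, was highest in m2cafpos like Tnc, at 12.1 ± 0.633 CPM, against 2.98 ± 0.836 in m2cafneg (1.74, limma adjusted p = 0.000751). Tnr, the nervous system tenascin, averaged at most 0.177 CPM and was not tested. The SPARC-related Smoc2 was low in vcaf (44.9 ± 23.7 CPM) and at 1509 ± 419, 1878 ± 752 and 495 ± 154 CPM in m2cafpos, m2cafneg and icaf, and Fstl1 was highest in icaf at 7610 ± 898 CPM, against 1083 ± 156 in vcaf, 4427 ± 605 in m2cafpos and 2694 ± 283 in m2cafneg.

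**Figure D5:**
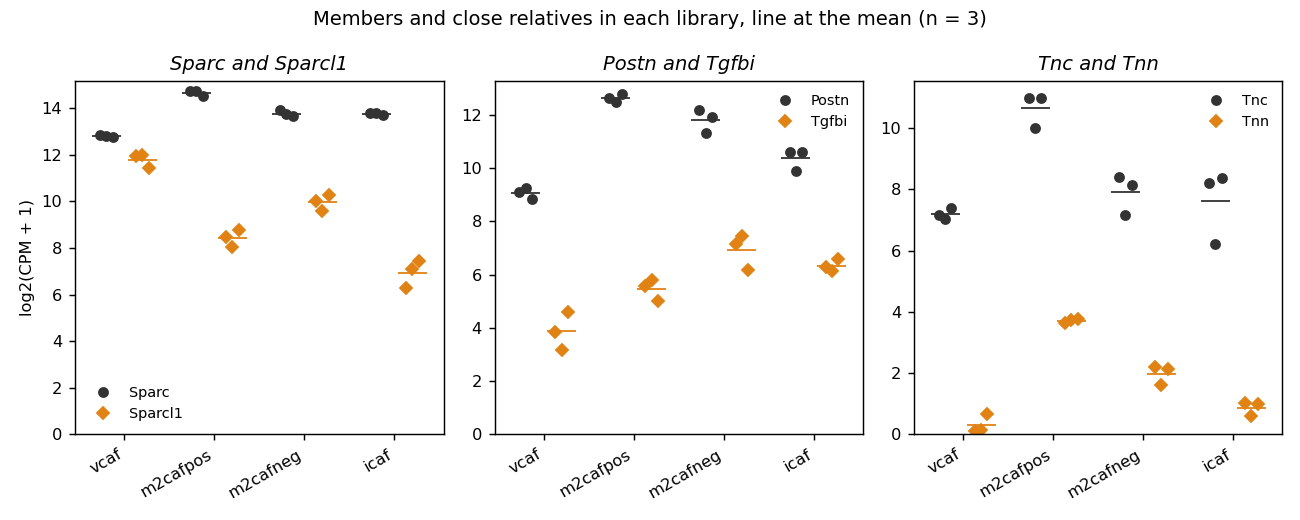
Log2(CPM + 1) (vertical axes) of Sparc and Sparcl1, Postn and Tgfbi, and Tnc and Tnn in each library by population, with a line at each mean of 3 libraries. Sparcl1 is highest in vcaf, where Sparc is lowest, while Tnn is highest in m2cafpos like Tnc.

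Receptors of thrombospondins were spread over the populations. Of 15 receptors and partners, 8 were higher and 4 lower in vcaf than in m2cafpos (median 0.85), where 55.5% of all tested genes were higher and 12.4% lower. Against m2cafneg 4 were higher and 5 lower in vcaf (0.20, all tested genes 26.6% and 11.3%), and against icaf 8 and 4 (0.75, all 46.1% and 13.9%). The counts higher in vcaf were near these shares of all genes. In m2cafpos 1 was higher and 5 lower than in m2cafneg (-0.41, all 3.51% and 22.6%) and 2 and 3 than in icaf (0.007, all 8.86% and 15.0%). In m2cafneg 4 were higher and 1 lower than in icaf (0.26, all 20.9% and 8.77%). Cd36, the scavenger receptor bound by thrombospondins 1 and 2, was at 166 ± 40.6 CPM in vcaf and at 7.97 ± 5.24 in m2cafpos, 22.8 ± 13.3 in m2cafneg and 6.76 ± 3.52 in icaf, higher in vcaf than in icaf by 4.49 (log2, SE 0.53, limma adjusted p = 1.90e-05). It is also a gene of endothelial cells and macrophages, whose summed markers were higher in every vcaf library than in any icaf library, and their part in this difference was not tested. Lrp1, the endocytic receptor that clears thrombospondins, went the other way, at 238 ± 43.3 CPM in vcaf and 1383 ± 211, 965 ± 54.6 and 1163 ± 71.5 CPM in m2cafpos, m2cafneg and icaf. The integrin genes Itga4 and Itga6 were higher in vcaf than in icaf by 3.11 and than in m2cafpos by 3.20, each its largest change (limma adjusted p = 1.35e-07 and 0.000189). Itgb1 averaged 693 ± 99.8 CPM in vcaf, against 283 to 325 in the others, the syndecan gene Sdc4 was lowest in m2cafpos (212 ± 67.4 CPM), and the chaperone gene Calr ranged only over 504 to 761 CPM.

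Of 13 tenascin receptors, 5 were higher and 4 lower in vcaf than in m2cafpos (median 0.05, all tested genes 55.5% and 12.4%). Against m2cafneg 2 were higher and 4 lower in vcaf (-0.35, all 26.6% and 11.3%), and against icaf 3 and 7 (-1.23, all 46.1% and 13.9%). In m2cafpos, where Tnc was highest, 1 was higher and 5 lower than in m2cafneg (-0.46, all 3.51% and 22.6%) and 1 and 6 than in icaf (-0.57, all 8.86% and 15.0%). In m2cafneg 1 was higher and 4 lower than in icaf (-0.13, all 20.9% and 8.77%). The integrin gene Itga8 was at 19.2 ± 2.00 CPM in vcaf and at 4.46 ± 0.737 in m2cafpos, 19.3 ± 3.29 in m2cafneg and 2.18 ± 1.57 in icaf, and Itga2 at 2.35 ± 1.24, 0.387 ± 0.107, 4.09 ± 1.72 and 11.1 ± 4.50 CPM. Itga11, a collagen-binding integrin gene placed in the same list, was lower in vcaf than in icaf by 4.74 (log2, SE 0.17, limma adjusted p = 9.24e-10), and Egfr was at 31.6 ± 2.74 CPM in vcaf and 98.6 to 143 in the others. Anxa2 was the most abundant of the list, at 2731 ± 673 CPM in icaf and 896 ± 117 in vcaf.

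Partners of periostin and osteonectin were mostly lower in vcaf than in m2cafpos and icaf. Of 9, 1 was higher and 6 lower in vcaf than in m2cafpos (median -1.14, all tested genes 55.5% and 12.4%). Against m2cafneg 0 were higher and 4 lower in vcaf (-0.51, all 26.6% and 11.3%), and against icaf 2 and 6 (-1.61, all 46.1% and 13.9%). In m2cafpos 5 were higher and 1 lower than in m2cafneg (0.74, all 3.51% and 22.6%) and 4 and 2 than in icaf (0.36, all 8.86% and 15.0%). In m2cafneg 3 were higher and 3 lower than in icaf (0.26, all 20.9% and 8.77%). Lox, the collagen cross-linking enzyme, was at 19.5 ± 5.44 CPM in vcaf and at 569 ± 84.4 in m2cafpos, 296 ± 18.0 in m2cafneg and 260.3 ± 26.8 in icaf, lower in vcaf than in m2cafpos by 4.82 (log2, SE 0.17, limma adjusted p = 9.10e-10). The collagen gene Col1a1 was lower in the same comparison by 3.89 (SE 0.30, limma adjusted p = 5.08e-07), and the integrin gene Itgb5 was highest in m2cafpos (350 ± 2.10 CPM, against 123 ± 13.2 in icaf). Fn1, the fibronectin gene, was highest in icaf, where it stood at 5785 ± 505 CPM, against 474 ± 59.5 in vcaf, 2715 ± 349 in m2cafpos and 1661 ± 467 in m2cafneg.

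Among 6 TGF-beta ligand and receptor genes, 1 was higher and 4 lower in vcaf than in m2cafpos (median -0.75, all tested genes 55.5% and 12.4%). Against m2cafneg 2 were higher and 3 lower in vcaf (-0.48, all 26.6% and 11.3%), and against icaf 3 and 2 (0.50, all 46.1% and 13.9%). In m2cafpos 1 was higher and 2 lower than in m2cafneg (0.05, all 3.51% and 22.6%) and 3 and 3 than in icaf (-0.05, all 8.86% and 15.0%). In m2cafneg 3 were higher and 1 lower than in icaf (0.34, all 20.9% and 8.77%). The ligand gene Tgfb3 was highest in m2cafpos, at 416 ± 27.3 CPM, with 256 ± 34.1 in vcaf, 266 ± 87.4 in m2cafneg and 101 ± 29.5 in icaf, whereas Tgfb2 was higher in vcaf than in m2cafpos by 2.38 (log2, SE 0.31, limma adjusted p = 4.52e-05). The receptor genes Tgfbr2 and Tgfbr3 were lower in vcaf than in icaf by 3.44 and 2.58 (limma adjusted p = 4.30e-09 and 1.25e-07).

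Over the 12 libraries, Postn and Thbs4 had the highest Pearson r of the 36 pairs of members (0.961 on log2(CPM + 1)), followed by Thbs2 and Sparc (0.945), and Thbs3 and Tnxb were at 0.874. Thbs1 and Tnxb had the lowest (-0.702), and Tnc and Tnxb were at -0.293. These points share 4 populations and 3 mice, so the values describe the populations' order as much as the genes. Of all other tested genes, those most like a member by the same measure were Lrrc15 (0.992), Matn2 (0.988) and Prss30 (0.985) for Postn, Olfml3 (0.988), Gria3 (0.986) and Msc (0.984) for Thbs4, and Fzd2 (0.990), Tmem150a (0.990) and Rbp4 (0.987) for Thbs2. For Tnc they were Sorcs2 (0.983), Ccdc116 (0.969) and Lgr5 (0.953), and for Sparc Fkbp10 (0.975), Col5a2 (0.974) and Ppic (0.973). Thbs3 was most like Dpt (0.992), Coro2b (0.991) and Ogn (0.991), and Tnxb like Nfe2l2 (0.984), Gsn (0.982) and Antxr2 (0.982). For Thbs1 and Comp no gene came as close, the highest being Smpd5 (0.842), Oaz2-ps (0.841) and Gpatch2l (0.814) for Thbs1 and Tex261 (0.888), Rpn1 (0.877) and Agk (0.873) for Comp. Lgr5, an R-spondin receptor gene, averaged 28.0 CPM in m2cafpos, against 1.93 in vcaf, 6.70 in m2cafneg and 2.39 in icaf, and Lrrc15, a marker of myofibroblast-like fibroblasts, averaged 1661 CPM in m2cafpos, against 25.7 in vcaf, 684 in m2cafneg and 113 in icaf.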

How the data were processed

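RNA from 4 sorted populations of 3 mice was sequenced. Per the submitters' processing notes, bcl2fastq, DRAGEN and the mouse genome mm10 were used; their versions, the counting tool, its strand setting and the annotation release were not given in the sources used here, so reads of overlapping genes on opposite strands cannot be assigned. The deposited table holds CPM made by the authors from counts, without other scaling: each column sums to 1000000. The title 27_vacf was taken to mean the vcaf library of mouse 27. All values were whole reads within 0.001 reads (100% of values), which gave 43898839 to 55363203 reads per library.

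A gene was tested when 3 or more libraries reached 1 CPM (15456 of 55487 genes). The tests ran in R 4.3.3 with limma 3.58.1, on a scale of log2(CPM + 1) (4 groups of 3 libraries in 1 fit, trend, two-sided, 8 residual and 4.29 prior degrees of freedom) over 6 pairs of populations, with Benjamini-Hochberg adjustment over all kept genes in each pair. The added 1 CPM understates changes of genes near 1 CPM, such as Comp. The code was also run on simulated counts with independent libraries, no mouse effect and changes set in vcaf only, read for vcaf against icaf. That run does not test the p-values where libraries share a mouse. Positions, exons and lengths came from GENCODE M21 on GRCm38, and promoters from RefSeq. Exon counts and lengths are those of the exons of all transcripts of a gene, merged where they overlap. The p-values rest on the spread between the 3 libraries within a population, pooled over the 4 populations and moderated across genes. The main fit treats the 12 libraries as independent and leaves out the mouse, although only 3 mice stand behind them.

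The numbers 27, 30 and 31 recur in each population, and the labels give 3 mice; that the numbers name the mice is inferred, not stated there. Across genes, deviations of 2 libraries of the same mouse from their population means had a median r of 0.293 (0.0843 to 0.452, 18 pairs), against -0.149 (-0.363 to 0.0746, 36 pairs) for different mice. Deviations within a population cancel out, so a positive r for the same mouse brings a negative r for different mice with it. The second value is therefore not separate evidence. A fit with the mouse as a block was an alternative. The other alternatives were a pseudocount of 0.1 CPM, no filter, median-of-ratios and TMM scaling, edgeR 4.0.16 quasi-likelihood on the recovered reads, a fit of 2 populations only, an epithelial covariate (log2 of the summed level of 10 genes) and leaving out each library. All 9 members were named in every comparison. Of each of 5 partner lists, the 4 most abundant genes and the 3 with the largest called change were named, of each list of another cell type the 2 most abundant (others there are given as defining markers), and for each member the 3 genes with the highest Pearson r. The members, the lists and these rules were chosen with earlier results of these data known.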

Additional observations from a re-analysis of the deposited data

How the results depend on the processing

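Of the 38 called pairs of gene and comparison, 24 kept direction and call under all 20 alternatives and 0 reversed in any. Calls that ended without a library, and most others that ended, stand beside their results. With no filter the calls of Thbs1 in vcaf against m2cafneg, Comp in vcaf against icaf, Thbs4, Tnxb and Postn in m2cafpos against m2cafneg and Tnxb in m2cafneg against icaf ended (limma adjusted p = 0.0808, 0.0694, 0.152, 0.0546, 0.0851 and 0.0569), with a pseudocount of 0.1 CPM that of Thbs4 (0.0575), and in edgeR also that of Tnxb in m2cafpos against m2cafneg (0.05004). With the mouse as a replicate block, Tnxb in vcaf against m2cafpos (limma adjusted p = 0.00813), Comp in vcaf against m2cafneg (0.00402) and Comp in m2cafpos against icaf (0.0460) were called as well, and no other call of the 9 genes changed. Members called in m2cafpos against m2cafneg numbered 6, but 3 with no filter, 3 with the epithelial covariate and 3 to 6 when a library was left out; with that covariate 5 were called in vcaf against icaf and 0 in m2cafneg against icaf.

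Over all genes, vcaf against m2cafpos gave 10492 calls, but 6913 in edgeR and 4596 with the covariate, vcaf against m2cafneg 5861, but 3758 in edgeR, and vcaf against icaf 9265, but 3356 with the covariate. For m2cafpos against m2cafneg the count was 4041, but 2617 with no filter, 2605 with median-of-ratios scaling, 2580 with TMM, 2088 in edgeR, 289 with the covariate and 2241 to 4219 when a library was left out. For m2cafneg against icaf it was 4594, but 620 with the covariate.

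Log2 differences that turned sign were all uncalled. Thbs1 in vcaf against m2cafpos (0.34) became -0.22 with median-of-ratios scaling, -0.20 with TMM and -0.20 in edgeR. Tnxb in the same comparison (-0.84) became 0.95 with the covariate. Thbs3 in m2cafpos against m2cafneg (0.26) became -0.47 with the covariate and ranged from -0.067 to 0.65 when a library was left out. In m2cafneg against icaf, Sparc (0.003) became -0.14, -0.13 and -0.12 with median-of-ratios scaling, TMM and edgeR and ranged from -0.071 to 0.066 when a library was left out. Tnc (0.29) became -0.012 in edgeR and -1.02 with the covariate and ranged from -0.40 to 0.68. Thbs2 (-0.05) became 0.21 with the covariate and ranged from -0.21 to 0.13. Thbs1 (0.15) ranged from -0.043 to 0.39 and Comp (-0.17) from -0.43 to 0.24. The cause of these changes was not tested. Depth limits only Comp, which rests on 16 to 379 reads per library.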
